A study of Mus musculus with 10 samples.

Results

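Glucocorticoid response genes were followed in mouse peritoneum: 9 genes chosen by name, Nr3c1, Hsd11b1, Fkbp5, Tsc22d3, Sgk1, Klf9, Errfi1, Mt1 and Mt2, of 21877 gene symbols counted. All 9 were in the count table and 8 had counts, while Mt2 was listed at 0 in all 10 libraries. Peritoneal tissue came from male C57BL/6 mice that either lacked Mr1 (Mr1-/-) or carried it (Mr1+/+). Mr1 is the antigen-presenting protein on which mucosal-associated invariant T cells depend. For 6 weeks the mice received intraperitoneal 4.25% peritoneal dialysis (PD) fluid, a glucose-rich dialysis solution, or an equal volume of phosphate-buffered saline (PBS). The 4 groups were Mr1-/- PD fluid (2 libraries), Mr1-/- PBS (2), Mr1+/+ PD fluid (3) and Mr1+/+ PBS (3). The labels name no glucocorticoid treatment and no hormone level in any group.

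Glucocorticoids, in the mouse mainly corticosterone, enter cells and bind the glucocorticoid receptor, which a chaperone complex built around Hsp90 holds ready in the cytoplasm. The bound receptor moves to the nucleus, binds glucocorticoid response elements as a dimer and switches on target genes, many of which dampen inflammation or feed back on the receptor itself. In fat and stroma the enzyme 11-beta-hydroxysteroid dehydrogenase type 1 regenerates active hormone from its inactive form, so the local hormone supply can differ from that in blood.

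The RefSeq promoter windows (GRCm38.p6, 250 bases before to 50 bases after each annotated start) were searched on both strands. There were 16 such windows for 8 of the genes, and Nr3c1 was not among them. The full palindromic glucocorticoid response element was searched as AGAACA, any 3 bases, and TGTTCT. It was found in 3 of 32851 windows of all genes (0.00913%), and 1 of the 3 was a window of Sgk1, which has 6 windows. Its AGAACA arm alone, which is contained in the full element, was far more common and occurred in 19.0% of all windows, among them 3 windows of Sgk1 and 1 of Tsc22d3. The core of the metal response element, bound by the zinc sensor Mtf1, was written TGCGCNC or TGCACNC. It occurred in 25.7% of all windows, and 1.97% of windows held 3 or more copies. The windows of Mt1 and Mt2, neighbouring metallothionein genes on the same strand with Mt1 starting 5514 bases beyond the end of Mt2, held 3 and 4 copies. The 250 bases upstream of the start are shown for Sgk1, Mt1 and Mt2 because they hold the elements searched for, with the elements in capitals, and for Klf9 because it was the only one of the 9 genes to pass the test in Mr1+/+ mice. The windows of Klf9, Fkbp5 and Errfi1 held none of the motifs, which says only that those letters are not in the windows searched.
Sgk1, full glucocorticoid response element in capitals, chr10:21993640-21993889, plus strand: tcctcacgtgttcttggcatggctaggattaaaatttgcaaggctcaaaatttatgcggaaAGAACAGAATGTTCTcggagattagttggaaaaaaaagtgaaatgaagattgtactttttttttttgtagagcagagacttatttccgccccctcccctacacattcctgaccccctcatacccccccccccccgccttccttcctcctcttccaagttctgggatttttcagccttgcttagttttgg
Mt1, metal response element core in capitals, chr8:94178839-94179088, plus strand: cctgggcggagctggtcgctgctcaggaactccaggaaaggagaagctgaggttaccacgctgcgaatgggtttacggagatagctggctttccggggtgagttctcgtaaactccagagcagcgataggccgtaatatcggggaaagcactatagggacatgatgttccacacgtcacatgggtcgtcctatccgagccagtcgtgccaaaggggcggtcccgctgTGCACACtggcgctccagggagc
Mt2, metal response element cores in capitals, chr8:94172368-94172617, plus strand: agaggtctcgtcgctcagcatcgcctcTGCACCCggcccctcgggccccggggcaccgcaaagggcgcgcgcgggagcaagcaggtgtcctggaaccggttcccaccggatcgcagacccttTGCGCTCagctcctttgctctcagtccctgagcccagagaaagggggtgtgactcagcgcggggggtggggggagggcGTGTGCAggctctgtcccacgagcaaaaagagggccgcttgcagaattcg
Klf9, no match, chr19:23140976-23141225, plus strand: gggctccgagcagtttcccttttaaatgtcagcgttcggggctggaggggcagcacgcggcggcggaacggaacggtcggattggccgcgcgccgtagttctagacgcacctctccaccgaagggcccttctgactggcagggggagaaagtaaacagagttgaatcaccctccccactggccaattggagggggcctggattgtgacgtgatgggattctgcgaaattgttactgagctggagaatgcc
The Sgk1 element, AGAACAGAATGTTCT, began 189 bases before the annotated start of that window, 1 of the 6 windows of Sgk1. That window lies inside the gene, which as annotated spans 21882184 to 21999903. Which start is used in this tissue was not tested. In Mt1 the upstream copy began 23 bases before the start and the other 2 lay after it. In Mt2 the upstream copies began 223, 128 and 50 bases before the start and 1 copy lay after it.

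The libraries held 14145635 to 16335799 counts. Replicates 1 and 2 of Mr1-/- PD fluid, and replicates 1 and 2 of Mr1+/+ PBS, were near-identical (chi-square per gene 1.74 and 2.23, against 18.6 to 118 for other pairs within groups). Each of these pairs was summed and counted as 1 sample, which left n = 1 for Mr1-/- PD fluid, 2 for Mr1-/- PBS, 3 for Mr1+/+ PD fluid and 2 for Mr1+/+ PBS. The lone Mr1-/- PD fluid sample was assumed to vary like the others. The labels do not say which libraries came from separate mice, so p-values cover the spread among these samples alone, part of which may be technical. Mr1 itself was at 1.96 to 2.45 CPM (counts scaled to the library total, with TMM factors) in the Mr1-/- samples and 21.0 to 32.5 CPM in the Mr1+/+ samples. Markers of mesothelium, the lining of the peritoneum, were present in every sample, with 7 genes summing to 79.4 to 479 CPM and none at 0. In Mr1+/+ PBS replicate 3 Krt19 alone was at 341 of the 433 CPM, against 8.59 to 47.6 CPM in the other samples. The sum of that replicate thus rests mostly on 1 gene. Markers of other organs were present too. Intestinal markers summed to 1970 CPM in Mr1+/+ PBS replicate 3 and 19.8 to 32.3 CPM elsewhere. Pancreatic acinar markers summed to 26300 CPM in that replicate and 146 to 5370 CPM elsewhere. The liver gene Alb was at 64.1 to 107 CPM in Mr1-/- samples and 0.215 to 2.17 CPM in Mr1+/+ samples. Not all liver markers followed genotype in this way. The 10 listed summed to 252 CPM in Mr1+/+ PBS replicate 3, where Apoa1 was at 141 CPM and Apob at 93.7 CPM. They summed to 91.9 to 149 CPM in Mr1-/- samples and 2.03 to 9.18 CPM in the remaining Mr1+/+ samples.

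PD fluid in Mr1+/+ mice was compared with PBS first, to see whether the response genes moved with the dialysis solution. Klf9 rose 1.96-fold, and Mt1, Fkbp5, Hsd11b1 and Errfi1 were also higher in every PD fluid sample than in every PBS sample but did not pass the test. Nr3c1, Tsc22d3 and Sgk1 overlapped between the groups. By edgeR's quasi-likelihood test with Benjamini-Hochberg adjustment, 1 of 8 tested members rose and 0 fell, where 8.49% of the 15385 tested genes rose, 6.37% fell and 14.9% passed in either direction. At an unadjusted p under 0.05 there were 3 members, against 34.1% of all genes. The 5 members that were higher without overlap stood against 25.0% of all genes, and the 0 that were lower without overlap against 25.6%. The count of members that passed was 5 with all 10 libraries as separate samples (37.5% of all genes passed), 4 by DESeq2 (25.0%), 0 with an adipocyte covariate (0.403%) and 0 with a skeletal muscle covariate (2.54%). The median log2 fold change was 0.64 for the 8 members and -0.057 for all tested genes.

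**Figure D1:**
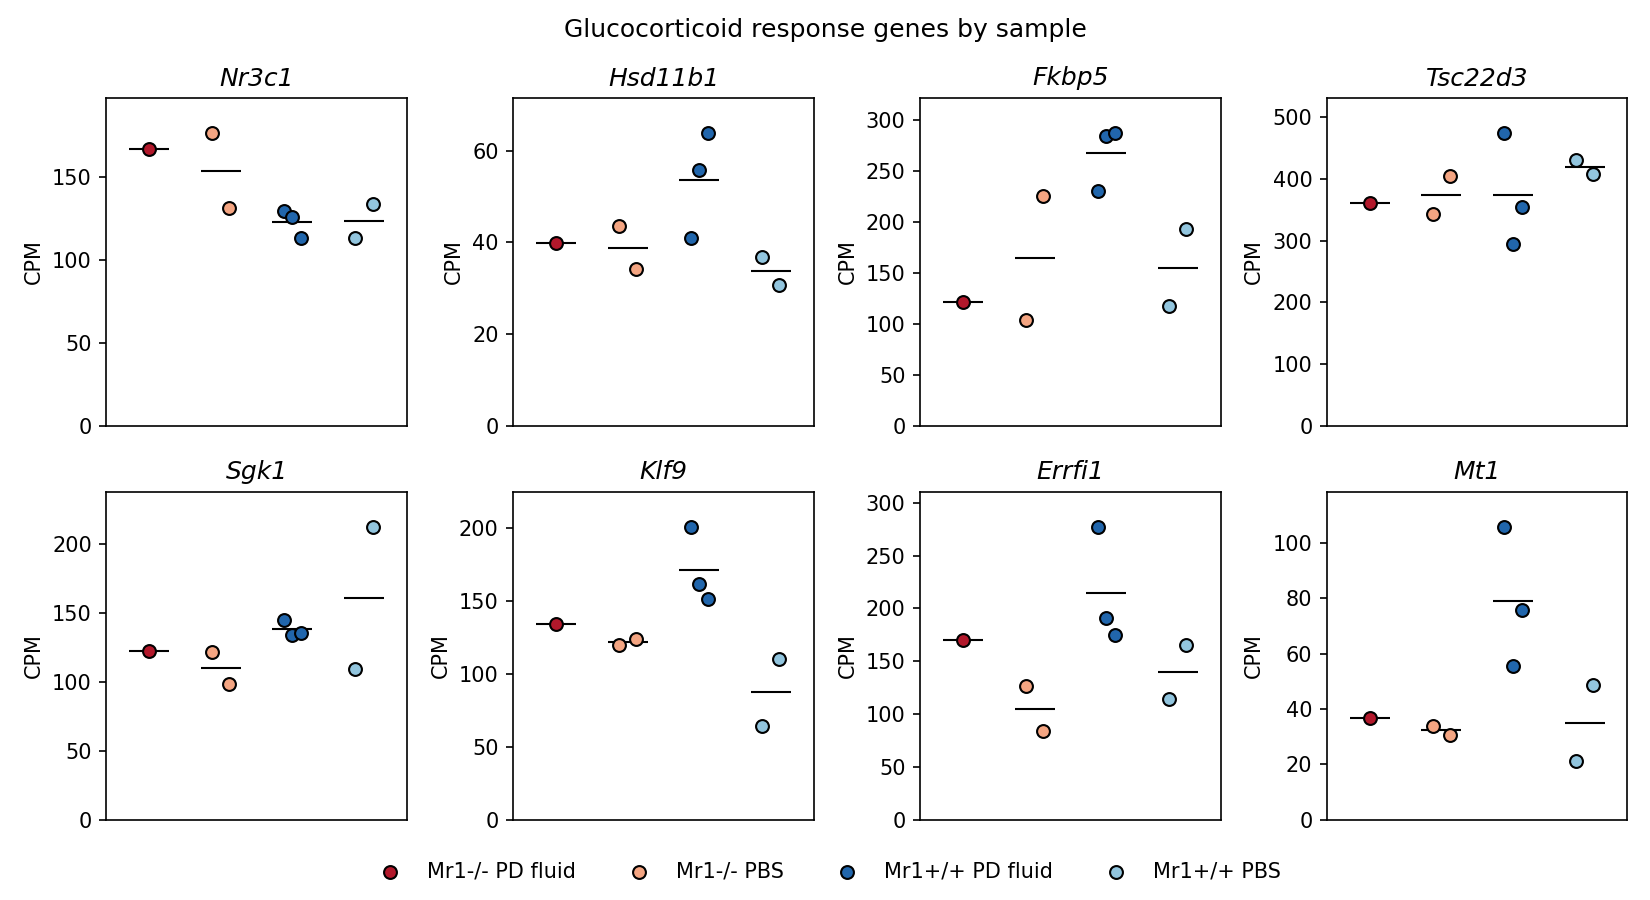
Level of each of the 8 detected genes in CPM (vertical axes, from 0) in the 8 samples, with 1 point per sample and a line at the group mean. The 3 Mr1+/+ PD fluid samples lie above both Mr1+/+ PBS samples for Hsd11b1, Fkbp5, Klf9, Errfi1 and Mt1, and the lone Mr1-/- PD fluid sample lies below all 3 of them for the same genes and for Sgk1.

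The receptor and the enzyme that supplies its ligand come first. Nr3c1, which encodes the glucocorticoid receptor, was at 129, 126 and 113 CPM in the Mr1+/+ PD fluid samples, against 113 and 134 CPM in the Mr1+/+ PBS samples. The 2 groups covered nearly the same range, at 123 ± 8.45 CPM (SD, n = 3) and 124 ± 14.5 CPM (SD, n = 2). Its log2 fold change was -0.0092 (SE 0.17, edgeR adjusted p = 0.975), with a 95% interval from -0.39 to 0.38. Among Mr1-/- samples Nr3c1 was at 167 CPM in the PD fluid sample and at 176 and 131 CPM in the PBS samples. All 3 of these exceeded all but 1 of the Mr1+/+ samples, the exception being the Mr1+/+ PBS replicate 3 value of 134 CPM, which lay just above the lower Mr1-/- PBS value.

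Hsd11b1 encodes the reductase that regenerates active glucocorticoid (mm10 chromosome 1, 193221634 to 193264075, minus strand). Its level was 41.0, 55.9 and 63.8 CPM in the Mr1+/+ PD fluid samples, against 36.8 and 30.7 CPM in the Mr1+/+ PBS samples. Every PD fluid sample was higher, although the lowest of them stood close to the upper PBS sample. The log2 fold change was 0.66 (SE 0.22, edgeR adjusted p = 0.0735). It passed without Mr1+/+ PD fluid replicate 1, the lowest of the 3 (0.82, edgeR adjusted p = 0.0346). It also passed without Mr1+/+ PBS replicate 1 (0.75, edgeR adjusted p = 0.0499), where replicate 2 alone stood for the summed sample. The Mr1-/- PD fluid sample, at 39.9 CPM, lay between the Mr1-/- PBS samples at 43.6 and 34.2 CPM. H6pd, which makes the cofactor for this reductase inside the endoplasmic reticulum, was at 361, 434 and 327 CPM in the Mr1+/+ PD fluid samples, against 249.9 and 249 CPM in the Mr1+/+ PBS samples. Its 0.58 (SE 0.20) on the log2 scale did not pass either (edgeR adjusted p = 0.0869).

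Feedback and anti-inflammatory targets come next. Fkbp5 (chromosome 17, 28399094 to 28517527, minus strand) encodes a co-chaperone that lowers the receptor's affinity for hormone and is itself induced by the receptor. It was at 230.4, 285 and 288 CPM in the Mr1+/+ PD fluid samples, against 118 and 193 CPM in the Mr1+/+ PBS samples. The groups did not overlap, but the 2 PBS samples were far apart. With a log2 fold change of 0.78 (SE 0.36) Fkbp5 did not pass (edgeR adjusted p = 0.171), while DESeq2 called it at 0.78 (adjusted p = 0.0443). In Mr1-/- mice Fkbp5 was at 122 CPM in the PD fluid sample and at 104 and 226 CPM in the PBS samples. The Mr1-/- PD fluid sample was thus near the lower end of all 8 samples, and the 2 Mr1-/- PBS samples were at opposite ends of the range of the 5 samples outside the Mr1+/+ PD fluid group.

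Tsc22d3 (chromosome X, 140539528 to 140600659, minus strand) encodes GILZ, the leucine zipper protein through which glucocorticoids restrain inflammatory transcription factors. It was at 474, 294 and 354 CPM in the Mr1+/+ PD fluid samples, against 429.9 and 407 CPM in the Mr1+/+ PBS samples. The highest and the lowest of all 8 samples were both in the PD fluid group. The log2 fold change was -0.16 (SE 0.21, edgeR adjusted p = 0.610). The Mr1-/- PD fluid sample held 361 CPM, between the Mr1-/- PBS samples at 343 and 405 CPM. Per kilobase of exon Tsc22d3 was the most abundant of the 8 genes, at 88.3 CPM per kb over the 8 samples, and Hsd11b1 the least, at 10.2. Errfi1 and Mt1 stood between them at 45.5 and 41.0 CPM per kb, Klf9 and Sgk1 at 27.6 and 27.5, Fkbp5 at 20.7 and Nr3c1 at 17.7. The ranges over the 8 samples overlapped between every pair of neighbours in this order, which is a description without a test.

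Sgk1 encodes the kinase induced by serum and glucocorticoids that keeps ion channels and transporters at the cell surface (chromosome 10, 21882184 to 21999903, plus strand). It carries the full response element shown above in a promoter window that lies inside the gene. It was at 145, 134 and 135 CPM in the Mr1+/+ PD fluid samples, against 109 and 212 CPM in the Mr1+/+ PBS samples. The PD fluid samples lay close together, between the 2 PBS samples. The higher PBS sample was replicate 3, the library with intestinal and pancreatic transcripts, whose part in its Sgk1 level was not tested. Sgk1 had a log2 fold change of -0.22 (SE 0.26, edgeR adjusted p = 0.578) and 0.34 without that replicate, where it did not pass either. Sgk1 in Mr1-/- mice was at 123 CPM in the PD fluid sample and at 122 and 98.3 CPM in the PBS samples.

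Klf9 encodes a zinc finger transcription factor that is a direct target of the receptor in several tissues (chromosome 19, 23141226 to 23168134, plus strand). It was at 200.5, 161 and 151 CPM in the Mr1+/+ PD fluid samples, against 64.3 and 110.0 CPM in the Mr1+/+ PBS samples. All 3 PD fluid samples were the highest of the 8, and the merged PBS sample was the lowest. Its log2 fold change of 0.97 (SE 0.24, 95% interval 0.43 to 1.52) passed the test (edgeR adjusted p = 0.0329). The call was lost without any 1 of the Mr1+/+ PD fluid libraries (adjusted p = 0.0649, 0.0752 and 0.0873 without replicates 1, 2 and 3, at 0.84, 1.03 and 1.05). Without Mr1+/+ PBS replicate 3 the log2 fold change was 1.41 (adjusted p = 0.00797). Klf9 in Mr1-/- mice was at 134 CPM in the PD fluid sample and at 119.9 and 124 CPM in the PBS samples. These 3 values fell between the Mr1+/+ PBS and the Mr1+/+ PD fluid samples.

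Errfi1 encodes Mig6, a feedback inhibitor of the epidermal growth factor receptor (chromosome 4, 150853919 to 150868892, plus strand). It was at 277, 191 and 175 CPM in the Mr1+/+ PD fluid samples, against 114 and 166 CPM in the Mr1+/+ PBS samples. The lowest PD fluid and the upper PBS sample were close. Its log2 fold change of 0.62 (SE 0.28) did not pass (edgeR adjusted p = 0.162). In Mr1-/- mice Errfi1 was at 170.1 CPM in the PD fluid sample, against 126 and 83.9 CPM in the PBS samples. It was the member with the largest difference in Mr1-/- mice, 0.70 (SE 0.36) on the log2 scale, about as large as in Mr1+/+ mice, and did not pass there (edgeR adjusted p = 1).

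Mt1 encodes metallothionein 1, a small cysteine-rich protein that binds zinc and copper and is induced by metals and by glucocorticoids (chromosome 8, 94179082 to 94180327, plus strand). It was at 106, 55.5 and 75.6 CPM in the Mr1+/+ PD fluid samples, against 21.3 and 48.7 CPM in the Mr1+/+ PBS samples. The groups did not overlap, and both were widely spread. The log2 fold change of 1.18 was the largest among the members, with the largest standard error among them (SE 0.41), and it did not pass (edgeR adjusted p = 0.0953). Without Mr1+/+ PBS replicate 3 it was 1.89 and passed (adjusted p = 0.0136). Mt1 in Mr1-/- mice was at 36.8 CPM in the PD fluid sample and at 33.9 and 30.6 CPM in the PBS samples, all within the Mr1+/+ PBS range. Over all 8 samples Mt1 varied most of the members, with 4.96-fold between the highest and the lowest sample. Mt2, its neighbour with a similar role (94172664 to 94173568), was at 0 counts in every library and was not tested. It shares 432 exon bases with Gm45774, an antisense gene that has no row in the table used here, and no other member shares exon bases with another gene. The table lists 3799 symbols, 17.4% of all, at 0 in every library, so the 0 of Mt2 is given as listed and no fold or limit is drawn from it.

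**Figure D2:**
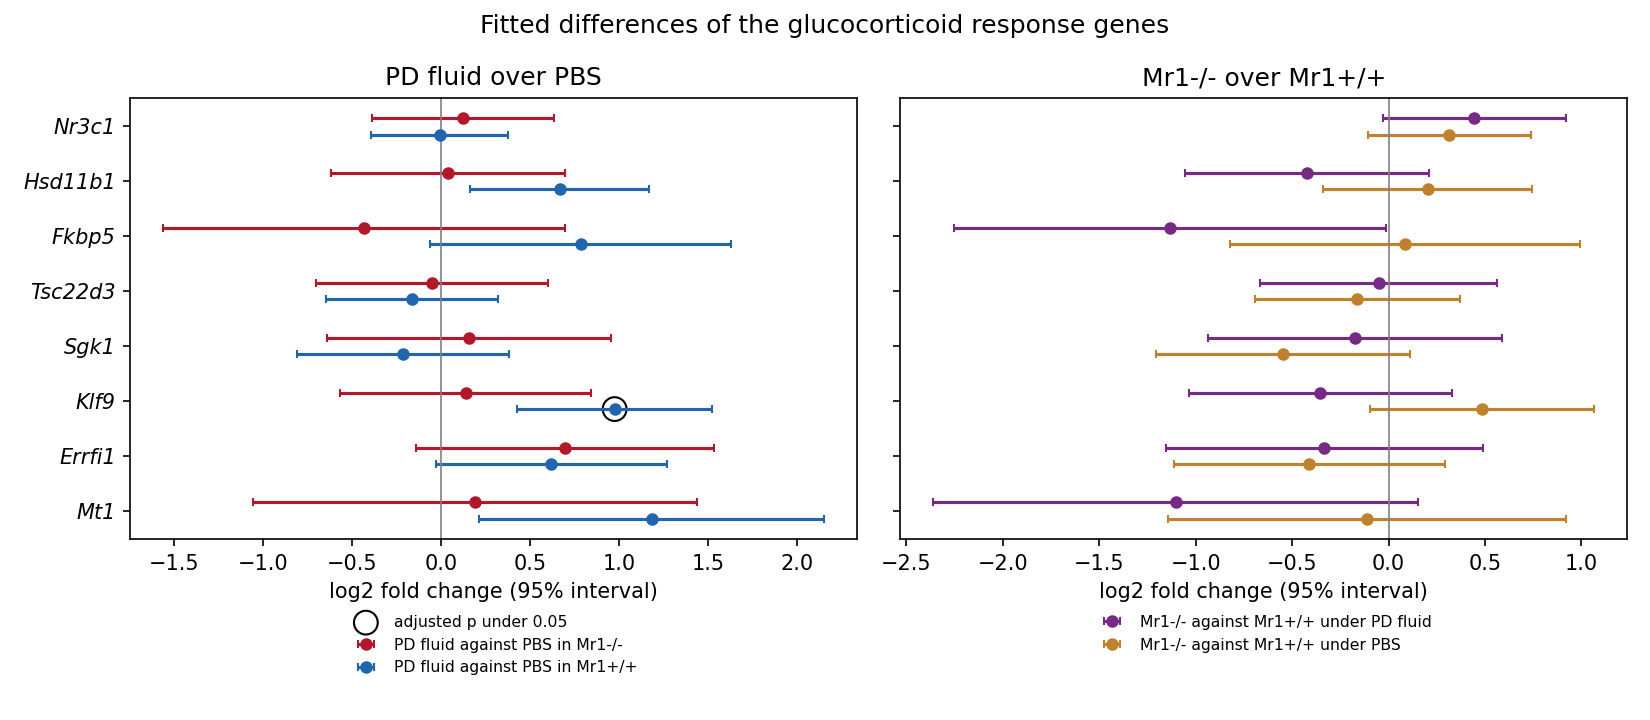
Log2 fold changes (horizontal axes) with 95% intervals for the 8 tested genes, with PD fluid over PBS in Mr1-/- and Mr1+/+ mice in the left panel and Mr1-/- over Mr1+/+ under PD fluid and under PBS in the right panel. A ring marks the single call, Klf9 at 0.97 in Mr1+/+ mice, and the intervals for Mr1-/- PD fluid, which rest on 1 sample, are the wider ones in each panel.

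The same comparison in Mr1-/- mice rested on 1 PD fluid sample against 2 PBS samples. EdgeR called 0 members (0 at an unadjusted p under 0.05), and DESeq2 also called 0, against 0.0715% of all genes. Over all genes edgeR called 0.00%, with 1.50% at an unadjusted p under 0.05. Sgk1, Klf9, Errfi1 and Mt1 were higher in the PD fluid sample than in both PBS samples, where 28.7% of all genes were, and 0 members were lower without overlap, against 27.9%. Beside Errfi1 the log2 fold changes were small, from -0.051 for Tsc22d3 to 0.19 for Mt1, except for Fkbp5 at -0.43 (SE 0.48). Fkbp5 took its sign from 1 library, being 0.23 without Mr1-/- PBS replicate 2 and -0.89 without Mr1-/- PBS replicate 1.

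Genotype was compared under PBS, without dialysis fluid. EdgeR called 0 of the 8 members (0 at an unadjusted p under 0.05), as did DESeq2, which called 1.37% of all genes. Over all genes edgeR called 0.0130%, with 8.64% at an unadjusted p under 0.05. Klf9 was higher in both Mr1-/- samples than in both Mr1+/+ samples, with a log2 fold change of 0.48 (SE 0.25), where 20.5% of all genes were. Tsc22d3 was lower without overlap at -0.16 (SE 0.23), where 18.1% of all genes were. Sgk1 was at -0.55 (SE 0.28), and at 0.010 without Mr1+/+ PBS replicate 3. Mt1 was at -0.11 (SE 0.43), and at 0.60 without the same replicate.

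Under PD fluid the lone Mr1-/- sample was compared with 3 Mr1+/+ samples. It lay below all 3 for Hsd11b1, Fkbp5, Sgk1, Klf9, Errfi1 and Mt1, 6 of the 8 members, where 33.9% of all genes did so, and above all 3 for Nr3c1, where 36.0% of all genes did so. EdgeR called 0 of these differences, and Fkbp5 was the only member at an unadjusted p under 0.05, against 19.1% of all genes (0.0130% called). Fkbp5 was at 122 CPM in the Mr1-/- PD fluid sample and 230.4 to 288 CPM in the Mr1+/+ PD fluid samples. The log2 fold change was -1.13 (SE 0.47, edgeR adjusted p = 0.257). DESeq2 called it (-1.15, adjusted p = 0.0374), as did edgeR with only these 2 groups in the fit (-1.13, adjusted p = 0.0313). Mt1 was at 36.8 CPM in the Mr1-/- sample and 55.5 to 106 CPM in the Mr1+/+ samples, a log2 fold change of -1.10 (SE 0.53, edgeR adjusted p = 0.310). Nr3c1 was 0.44 (SE 0.21) higher on the log2 scale (edgeR adjusted p = 0.284). With the 10 libraries as separate samples edgeR called Nr3c1 (0.44, adjusted p = 0.0470) and Fkbp5 (-1.14, adjusted p = 0.0396). These calls stood against 6.73% of all genes by DESeq2, 3.83% with only the 2 groups and 22.9% with 10 libraries.

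The difference between the PD fluid effects of the 2 genotypes was tested as an interaction. EdgeR called 0 members (0 at an unadjusted p under 0.05) and DESeq2 0. Of all genes edgeR called 0.00% and DESeq2 3.17%, and 13.2% had an unadjusted p under 0.05 by edgeR. Fkbp5 had the largest interaction, at -1.22 (SE 0.60, edgeR adjusted p = 0.425), followed by Mt1 at -0.99 (SE 0.67), Klf9 at -0.84 (SE 0.39) and Hsd11b1 at -0.63 (SE 0.36). Their 95% intervals all included 0, reaching from -2.64 to 0.20 for Fkbp5. Errfi1 had the smallest at 0.077 (SE 0.46). The PD fluid effects in Mr1+/+ mice were therefore not shown to differ from those in Mr1-/- mice for any member.

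Other genes of the pathway were read from 6 lists, which were chosen with earlier results of these data known. A count above the share of all genes may in part follow from that choice. Of 33 tested glucocorticoid-inducible genes outside the 9 members, 12 rose and 0 fell with PD fluid in Mr1+/+ mice, against 8.49% and 6.37% of all genes, with a median log2 fold change of 0.57. Of the listed genes 2 are also on marker lists, Cd163 on that for macrophages and Tat on that for liver. The others are not thereby free of differences in cell content, whose part was not tested. Tat was at 4.36 CPM in the Mr1-/- PD fluid sample, 3.26 and 2.097 CPM in the Mr1-/- PBS samples, 1.18, 0.268 and 0.130 CPM in the Mr1+/+ PD fluid samples and 0.154 and 3.37 CPM in the Mr1+/+ PBS samples. Lcn2, which encodes the iron-sequestering lipocalin 2, was at 7.63, 26.0 and 31.4 CPM in the Mr1+/+ PD fluid samples, against 2.28 and 1.54 CPM in the Mr1+/+ PBS samples (log2 fold change 3.48, SE 0.64). Anxa1, an anti-inflammatory phospholipid-binding protein, was at 94.7, 74.2 and 93.8 CPM, against 21.8 and 27.3 CPM in the PBS samples (1.84, SE 0.26). Both were higher in every PD fluid sample. Angptl4, an inhibitor of lipoprotein lipase, rose by 1.73 (SE 0.45) and the haemoglobin scavenger receptor Cd163 by 1.69 (SE 0.22). The edgeR adjusted p of these 4 genes was 0.0202, 0.0124, 0.0494 and 0.0124. Per1 and Dusp1, rapid responders to the hormone in many tissues, were at -0.40 (SE 0.22) and 0.20 (SE 0.42) and did not pass. The count of 12 was 13 by DESeq2, where 12.4% of all genes rose. It was 4 without Mr1+/+ PD fluid replicate 2, where 1.64% of all genes rose. Without replicate 3 of that group it was 0, where edgeR called 0.00% of all genes. The count was 2 with the skeletal muscle covariate (1.01% of all genes rose) and 0 with the adipocyte covariate (0.0195%).

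**Figure D3:**
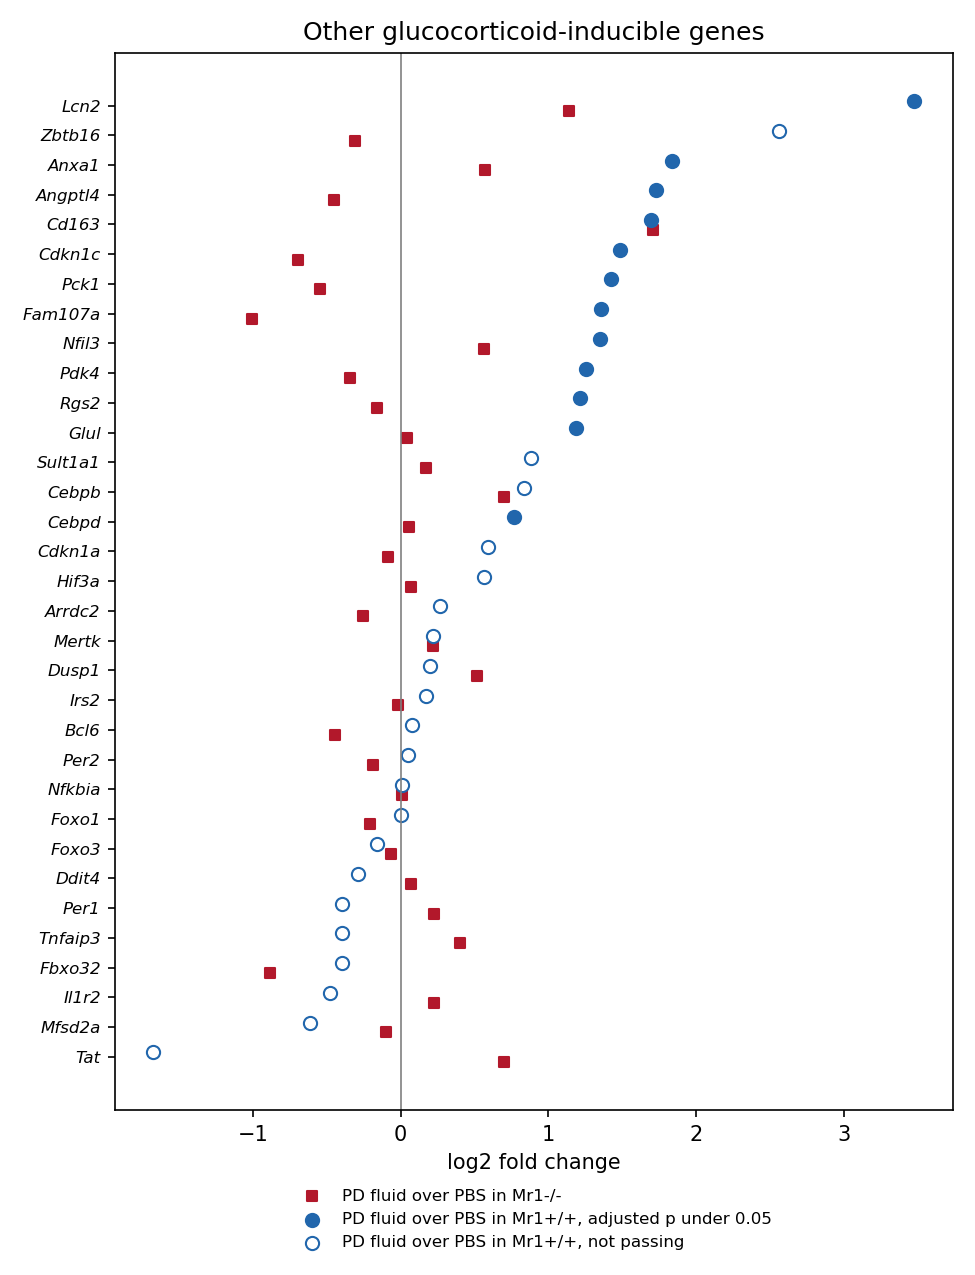
Log2 fold change with PD fluid over PBS (horizontal axis) of the 33 tested glucocorticoid-inducible genes outside the 9 members, with squares for Mr1-/- mice and circles for Mr1+/+ mice, filled where the edgeR adjusted p was under 0.05. The 12 filled circles all lie to the right of 0, while the squares scatter around 0 with a median of 0.011 and Cd163 at 1.71.

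In Mr1-/- mice edgeR called 0 of these 33 genes with PD fluid and DESeq2 called 1 higher (0.0650% of all genes). At an unadjusted p under 0.05 there were 2, against 1.50% of all genes, with Cd163 at 1.71 (SE 0.27) and Fam107a, an actin-binding protein, at -1.005 (SE 0.34). Under PD fluid their median was -0.38 in Mr1-/- relative to Mr1+/+ mice, with 0 called by edgeR, 13 at an unadjusted p under 0.05 (19.1% of all genes) and 8 called lower by DESeq2 (3.86%). Fam107a was at 5.81 CPM in the Mr1-/- PD fluid sample, against 17.8, 19.3 and 18.1 CPM in the Mr1+/+ PD fluid samples (-1.66, SE 0.34). Pdk4, the kinase that switches off pyruvate dehydrogenase, was at 53.6 CPM against 203, 213 and 202 CPM (-1.94, SE 0.39). Neither gene passed (edgeR adjusted p = 0.145 for each), although both lay far below the Mr1+/+ range. The interaction had a median of -0.50 over the 33 genes and edgeR called 0. At an unadjusted p under 0.05 there were 8 (13.2% of all genes), and DESeq2 called 5 lower (2.07%), with Fam107a at -2.36 (SE 0.43) and the glutamine synthetase gene Glul at -1.14 (SE 0.29). Under PBS the median was 0.0034 and edgeR called 0. At an unadjusted p under 0.05 there were 4 (8.64% of all genes), and DESeq2 called 1 higher (0.487%), with the clock gene Per2 at 0.95 (SE 0.21).

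Of 17 genes for the receptor's chaperones, coactivators and corepressors and for steroid handling, 4 fell and 0 rose with PD fluid in Mr1+/+ mice, against 6.37% and 8.49% of all genes. All 4 encode coactivators of nuclear receptors. DESeq2 called 7 lower and 1 higher, against 12.6% and 12.4% of all genes. EdgeR called 0, 1 and 0 lower without Mr1+/+ PD fluid replicate 1, 2 or 3 (5.19%, 0.566% and 0.00% of all genes). With the adipocyte covariate it called 0 lower (0.383%). Ep300, a histone acetyltransferase, was at 140.3, 205 and 129.9 CPM in the PD fluid samples, against 315 and 264 CPM in the PBS samples (log2 fold change -0.87, SE 0.21, edgeR adjusted p = 0.0333). Its paralog Crebbp was at -0.79 (SE 0.19), Ncoa2 at -0.71 (SE 0.20) and the Mediator subunit Med1 at -0.70 (SE 0.18), with edgeR adjusted p of 0.0336, 0.0480 and 0.0357. Ep300 in Mr1-/- mice was at 319.9 CPM in the PD fluid sample and at 287 and 248 CPM in the PBS samples, within or near the Mr1+/+ PBS range. Under PD fluid Ep300 was at 1.01 (SE 0.26) and Crebbp at 0.78 (SE 0.24) in Mr1-/- relative to Mr1+/+ mice, and neither passed (edgeR adjusted p = 0.149 and 0.169). EdgeR called 0 of the 17 in that comparison, with 4 at an unadjusted p under 0.05 (19.1% of all genes) and 2 called higher by DESeq2 (2.87%). Under PBS edgeR also called 0, with 2 at an unadjusted p under 0.05 (8.64% of all genes), while DESeq2 called 1 higher (0.487%) and 1 lower (0.884%). Hsp90aa1, the inducible Hsp90 chaperone, was at 229 and 409 CPM in Mr1-/- PBS samples, against 93.6 and 122 CPM in Mr1+/+ PBS samples (1.56, SE 0.30, edgeR adjusted p = 0.506). With PD fluid in Mr1-/- mice edgeR called 0 of the 17, with 0 at an unadjusted p under 0.05 (1.50% of all genes). H6pd was at 0.45 (SE 0.27) and Hsp90aa1 at -0.60 (SE 0.36) there. In the interaction edgeR called 0, with 6 at an unadjusted p under 0.05 (13.2% of all genes). Ep300 was at 1.13 (SE 0.36) and Crebbp at 0.90 (SE 0.32), while 10 of the 17 values were positive and 7 negative. Hsd11b2, the enzyme that inactivates the hormone in kidney and colon, was at 61.4 CPM in Mr1+/+ PBS replicate 3 and at 0.186 to 0.953 CPM in the other 7 samples.

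The other 4 lists covered metal handling, the epidermal growth factor system, genes around Sgk1, and relatives of Tsc22d3 and Klf9. Of 9 tested metal response genes, edgeR called 0 with PD fluid in Mr1+/+ mice (14.9% of all genes). At an unadjusted p under 0.05 there was 1 (34.1% of all genes), and DESeq2 called 0 (25.0%). Mtf1, the zinc-sensing factor of the metallothionein promoters, was at 32.9, 43.4 and 31.9 CPM in the PD fluid samples, against 48.5 and 48.9 CPM in the PBS samples (-0.43, SE 0.17, edgeR adjusted p = 0.1099). Mt1 was thus higher, and Mtf1 lower, in every Mr1+/+ PD fluid sample than in every PBS sample, without either passing. Of 9 genes of the epidermal growth factor system, the ligand Btc rose, 1 of 9 where 8.49% of all genes rose, at 3.66, 3.62 and 5.05 CPM in the PD fluid samples against 1.48 and 1.68 CPM in the PBS samples (1.38, SE 0.38, edgeR adjusted p = 0.0477). Of 10 genes related to Sgk1, its substrates Ndrg2 and Ndrg1 rose, by 0.85 (SE 0.17) and 0.63 (SE 0.17), with edgeR adjusted p of 0.0186 and 0.0427. The 2 of 10 here, and the 2 of 9 relatives of Tsc22d3 and Klf9, stood against the same 8.49%. Of 9 relatives, Klf15, another direct target of the receptor, was at 88.8, 87.5 and 86.8 CPM in the PD fluid samples against 29.7 and 45.0 CPM in the PBS samples (1.24, SE 0.19, edgeR adjusted p = 0.0124), and Klf10 rose by 0.80 (SE 0.22). DESeq2 called 2 higher and 1 lower in the epidermal growth factor list, 3 higher among genes related to Sgk1, and 3 higher and 2 lower among the relatives, against 12.4% higher and 12.6% lower over all genes. Without Mr1+/+ PD fluid replicate 3 edgeR called 0 in all 4 lists and 0.00% of all genes. The medians of the 4 lists were -0.12, -1.13, -0.091 and -0.18 on the log2 scale, against -0.057 for all genes, and that of the epidermal growth factor list was 0.64 over 7 tested genes without Mr1+/+ PBS replicate 3. In the other 4 comparisons edgeR called 0 genes of these 4 lists. Counts at an unadjusted p under 0.05 follow in the order of the lists above. They were 0, 0, 0 and 0 with PD fluid in Mr1-/- mice (1.50% of all genes). Between genotypes they were 0, 1, 2 and 0 under PBS (8.64%) and 0, 0, 3 and 3 under PD fluid (19.1%). In the interaction they were 0, 1, 1 and 3 (13.2%). DESeq2 called 0 to 3 per list, against 0.0715%, 1.37%, 6.73% and 3.17% of all genes in these comparisons. Klf15 was at 42.1 CPM in the Mr1-/- PD fluid sample, below every Mr1+/+ PD fluid sample (-1.06, SE 0.24, edgeR adjusted p = 0.145).

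Markers of several cell types moved with the same groups. The tissue is bulk, so fewer cells of a type and less RNA per cell cannot be told apart. Adipocyte markers, 12 genes with none at 0 in any sample, summed to 10100 CPM in the Mr1-/- PD fluid sample and 8220 to 12100 CPM in the Mr1-/- PBS samples. They summed to 17600 to 26200 CPM in the Mr1+/+ PD fluid samples and 5710 to 7130 CPM in the Mr1+/+ PBS samples. With PD fluid in Mr1+/+ mice 11 of the 12 rose (median log2 fold change 1.69). Fibroblast markers summed to 2190 CPM, 1170 to 1450, 3070 to 3290 and 1120 to 1310 CPM in Mr1-/- PD fluid, Mr1-/- PBS, Mr1+/+ PD fluid and Mr1+/+ PBS samples, and 7 of 8 rose in Mr1+/+ mice. B cell markers summed to 1120 to 1250 CPM in the Mr1+/+ PD fluid samples, against 2010 to 3190 CPM in the Mr1+/+ PBS samples, and 8 of 8 fell. Endothelial markers rose in 4 of 8 genes and macrophage markers in 3 of 8, with sums of 1700 to 2140 CPM and 2530 to 3420 CPM in the Mr1+/+ PD fluid samples, against 1110 to 1190 CPM and 2040 to 2300 CPM in the Mr1+/+ PBS samples. T cell markers fell in 3 of 7 tested genes and erythroid markers rose in 3 of 5. Skeletal muscle markers summed to 22.1 to 43.5 CPM in the 8 samples, with Myh4 at 0 in each. With PD fluid in Mr1+/+ mice the 7 tested had a median log2 fold change of -0.76. By edgeR 4 of them had an unadjusted p under 0.05, against 34.1% of all genes. Averaged as log2 CPM, these 7 genes formed the skeletal muscle covariate. A fit with that covariate may therefore not separate muscle content from PD fluid, and the part of muscle was not tested.

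**Figure D4:**
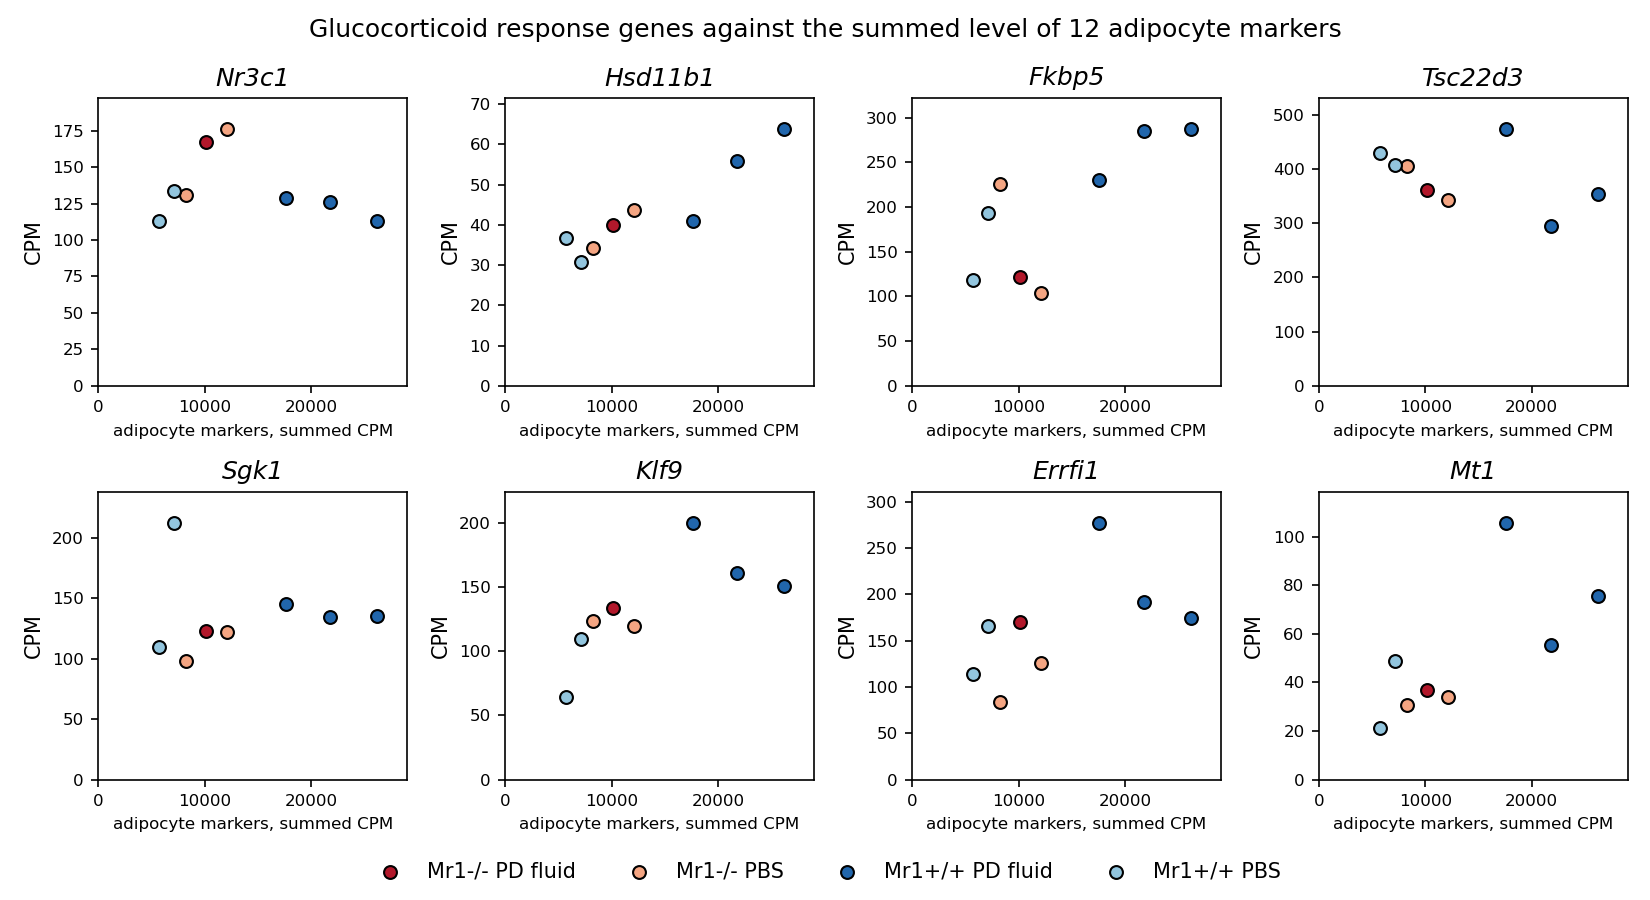
Level of each of the 8 detected genes in CPM (vertical axes, from 0) against the summed CPM of 12 adipocyte markers (horizontal axes) in the 8 samples. The 3 Mr1+/+ PD fluid samples form the right-hand cluster at 17600 to 26200 CPM. Within it the sample with the fewest adipocyte transcripts has the highest Nr3c1, Tsc22d3, Sgk1, Klf9, Errfi1 and Mt1 and the lowest Hsd11b1 and Fkbp5.

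The 3 Mr1+/+ PD fluid samples differed in these sums and in the members. Replicate 1 had the lowest adipocyte sum, 17600 CPM, and the highest Klf9, Errfi1, Mt1, Tsc22d3, Sgk1 and Nr3c1. It had the lowest Hsd11b1 and Fkbp5. Replicate 3 had the highest adipocyte sum, 26200 CPM, and the highest Hsd11b1 and Fkbp5. Hsd11b1 and Fkbp5 stood in the same order as the adipocyte sum over these 3 samples (17600, 21800 and 26200 CPM in replicates 1, 2 and 3). The fibroblast sum (3070, 3200 and 3290 CPM) and the macrophage sum (2530, 3210 and 3420 CPM), among others, shared that order. Mt1, Tsc22d3 and Sgk1 stood in the order of the erythroid sum (240.0, 84.8 and 111 CPM). The T cell sum (567, 377 and 393 CPM) and the mesothelial sum (479, 181 and 195 CPM), among others, had the same order as the erythroid sum. Klf9, Errfi1 and Nr3c1 stood in the order of the B cell sum (1250, 1130 and 1120 CPM). An order over 3 samples therefore does not tie a member to 1 cell type. With the adipocyte markers (averaged as log2 CPM) as a covariate no member passed in Mr1+/+ mice. Under this covariate Klf9 was at 0.60, Fkbp5 at 1.35 and Mt1 at 0.24, while Hsd11b1 (-0.22) and Errfi1 (-0.18) took a negative sign. Sgk1 was at -1.62, Nr3c1 at -0.74 and Tsc22d3 at 0.70, against -0.22, -0.0092 and -0.16 without the covariate. The adipocyte sums of the Mr1+/+ PD fluid and Mr1+/+ PBS samples did not overlap. A fit with this covariate therefore cannot tell adipocyte content and PD fluid apart. The part of these cell types in the members' differences was not tested.

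**Figure D5:**
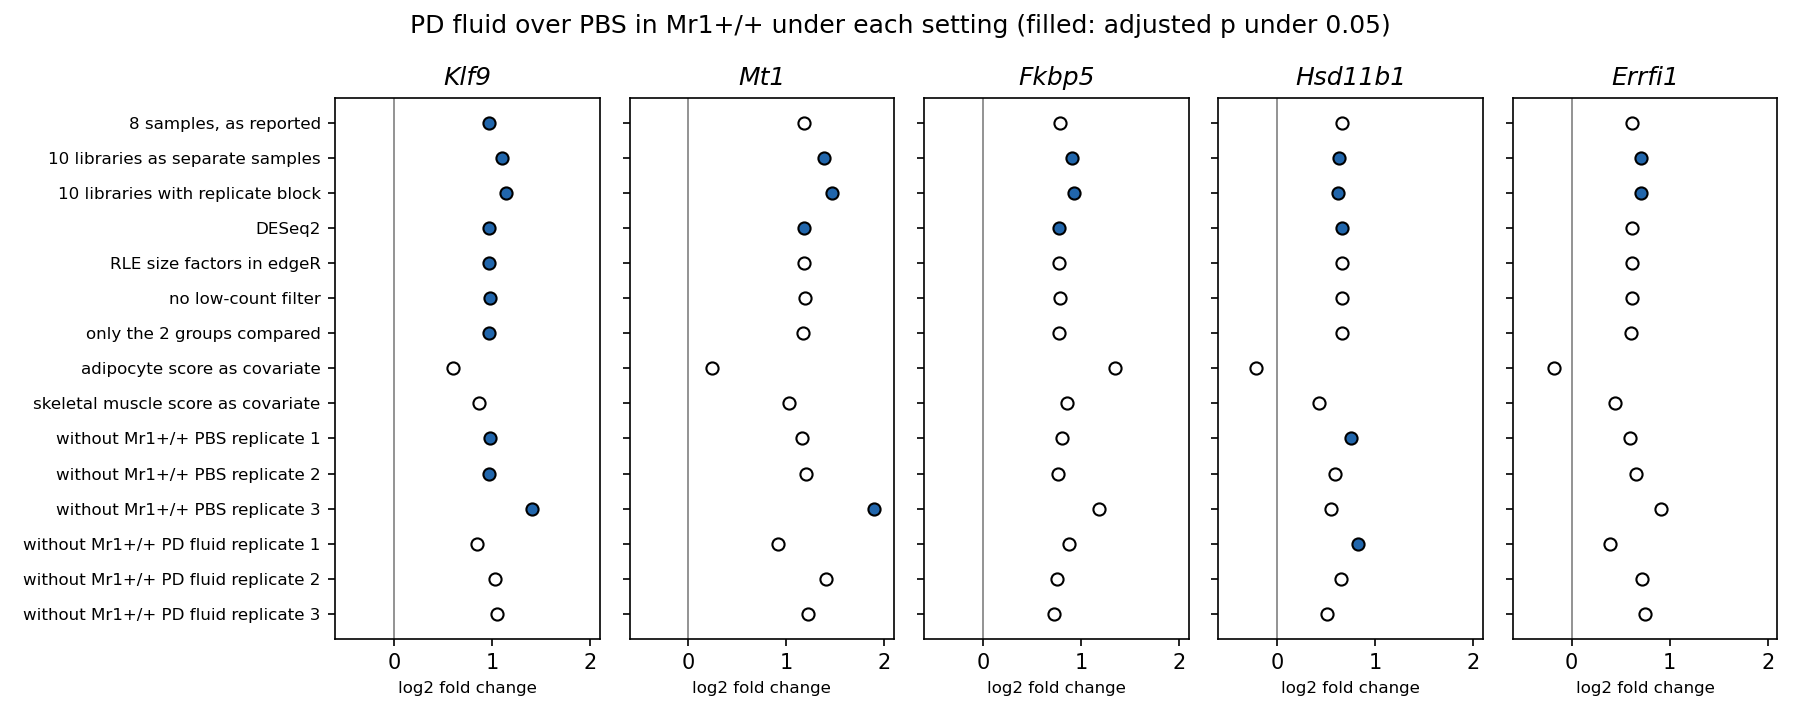
Log2 fold change with PD fluid over PBS in Mr1+/+ mice (horizontal axes) of the 5 members that were higher without overlap, under each setting or with 1 library left out (rows), filled where the adjusted p was under 0.05. Klf9 is filled in most rows but not with the adipocyte or skeletal muscle covariate or without any 1 Mr1+/+ PD fluid library, and Hsd11b1 and Errfi1 lie left of 0 under the adipocyte covariate.

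The genes whose level followed each member most closely were ranked by Pearson's r of log2 CPM over the 8 samples among 11538 genes. The values are descriptive, since the samples share libraries and group differences. For Klf9 they were Enpp4 (r = 0.988), Usp46 (0.981) and Gulp1 (0.973), and for Fkbp5 H1f2 (0.992), Sctr (0.977) and Khdrbs3 (0.974). For Mt1 they were Asah1 (0.980), Sptssa (0.972) and Btbd3 (0.959), for Errfi1 Rtn4rl1 (0.993), Rin2 (0.964) and Plau (0.962), and for Hsd11b1 Apoc1 (0.966), Ppp2cb (0.964) and Inka1 (0.962). Sgk1 was followed by Rhpn2 (0.993), Emp1 (0.985) and Eps8l2 (0.982), and Nr3c1 by Spag9 (0.984), Tcf4 (0.983) and Erap1 (0.977). Tsc22d3 had the weakest matches, Snx4 (0.901), Rpl38 (0.898) and Ppp1r21 (0.894). No 2 members shared a gene among their 3 closest.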

How the data were processed

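The authors deposited 1 table of read counts per gene symbol for 10 libraries, with no normalization. Per the labels' protocols, the RNA was poly-A selected and primed with random primers, and no strand-marking step or molecular identifier is named. The genome build was mm10, per the submitters' processing notes, while the aligner, counter and annotation were not given in the sources used here. Of 21877 symbols, 97.0% matched GENCODE M21. The 2 near-identical pairs of libraries (chi-square per gene under 3) were summed. All 8 samples were fitted with edgeR 4.0.16 in R 4.3.3, with TMM scaling, the filterByExpr filter and the robust quasi-likelihood test, which left 15385 genes, 4 residual degrees of freedom before shrinkage and Benjamini-Hochberg adjustment over all genes at 0.05. CPM are TMM-scaled. Fits were tested on simulated counts. Alternatives were DESeq2 1.42.0, other scaling and filters, 10 separate libraries, a replicate block, covariates and leaving out each library. The 9 genes and all lists, cell type markers included, were chosen with earlier results of these data known. From each other list, up to 4 genes that passed with the largest change are named with PD fluid in Mr1+/+ mice, or up to 2 with the smallest p where none passed. In the other comparisons this rule was used only for the glucocorticoid-inducible genes and the receptor's partners. From the remaining lists only Klf15 under PD fluid is named there, so the naming was not uniform. H6pd, Per1 and Dusp1 in Mr1+/+ mice were named outside this rule, after their values were seen. For each member, the 3 genes with the highest correlation were named.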

Additional observations from a re-analysis of the deposited data

How the results depend on the processing

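With PD fluid in Mr1+/+ mice 1 member passed. The count was 5 with the 10 libraries as separate samples, 4 by DESeq2, 0 with the adipocyte or the skeletal muscle covariate, and 0 to 2 with 1 library left out. Over all genes 2286 passed, against 5549 with 10 libraries, 3845 by DESeq2, 391 with the muscle covariate and 62 with the adipocyte covariate. Without Mr1+/+ PD fluid replicate 1, 2 or 3 the count was 2151, 339 and 0. Between genotypes under PD fluid 0 members passed, against 2 with 10 libraries, 1 by DESeq2 and 1 with only the 2 groups in the fit. The other 3 comparisons had 0 in every setting run. The cause of these shifts was not tested. The fit with 10 libraries counts the near-identical libraries of each summed pair as separate samples.

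Deviations of same-numbered libraries from their group means were weakly correlated between PD fluid and PBS. They gave r = 0.13, -0.11 and 0.098 in Mr1+/+ and 0.034 in Mr1-/- mice. Between genotypes under PBS r was -0.16 and 0.17. In a group of 2 libraries the deviations mirror each other, and differently numbered libraries were not compared. Whether the replicate numbers pair samples therefore cannot be decided from these values. The replicate block was fitted with the 10 libraries as separate samples, so it changed both choices. With it 5 members passed with PD fluid in Mr1+/+ mice, as many as with the 10 libraries and no block, and Nr3c1 was at 0.035 and Sgk1 at 0.023 on the log2 scale. Under this block fit Mt1 was at 0.36 between genotypes under PBS.

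Signs turned elsewhere too. With 10 libraries they were Nr3c1 at 0.033 with PD fluid in Mr1+/+ mice, Mt1 at 0.085 between genotypes under PBS, and Errfi1 at -0.018 in the interaction. With the adipocyte covariate, Hsd11b1 was at -0.22, Tsc22d3 at 0.70 and Errfi1 at -0.18 with PD fluid in Mr1+/+ mice, against 0.66, -0.16 and 0.62 without it. It also gave Hsd11b1 at -0.11 and Tsc22d3 at 0.12 between genotypes under PBS, Hsd11b1 at 0.12, Sgk1 at 0.72 and Errfi1 at 0.17 under PD fluid, and Hsd11b1 at 0.23 (-0.63 without it) and Tsc22d3 at -0.70 in the interaction. With the muscle covariate Tsc22d3 was at 0.11 with PD fluid in Mr1+/+ mice, Sgk1 at 0.22 between genotypes under PD fluid and Tsc22d3 at -0.19 in the interaction.

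With 1 library left out, 15 of 40 values took the other sign. Where that library belonged to a summed pair, the other library of the pair stood for the sample. Neither summed sample was thus left out whole. With PD fluid in Mr1+/+ mice the ranges were -0.047 to 0.12 for Nr3c1, -0.37 to 0.00068 for Tsc22d3 and -0.25 to 0.34 for Sgk1. In Mr1-/- mice they were -0.077 to 0.35 for Nr3c1, -0.13 to 0.23 for Hsd11b1, -0.89 to 0.23 for Fkbp5 and -0.17 to 0.075 for Tsc22d3. Between genotypes they were -0.58 to 0.54 for Fkbp5, -0.71 to 0.010 for Sgk1 and -0.18 to 0.60 for Mt1 under PBS, and -0.22 to 0.16 for Tsc22d3 under PD fluid. In the interaction they were -0.066 to 0.36 for Nr3c1, -0.039 to 0.32 for Tsc22d3, -0.18 to 0.54 for Sgk1 and -0.22 to 0.40 for Errfi1. The lone Mr1-/- PD fluid sample limits all comparisons that use it.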
